A study of Homo sapiens with 4 samples.

Results

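The miRNA repertoire of H1975 cells in normoxia was described from 1 small RNA sequencing library. Every miRNA with 1 or more reads in that library was taken as a member, which gave 116 of the 141 mature miRNAs in the table. The members were therefore chosen by their own counts, and the shares below describe them without a test. H1975, a human cell line from a lung adenocarcinoma, is given the genotype WT in the labels. Cells were grown with 10% fetal bovine serum at 37 °C and 5% CO2, and the normoxia group had no further treatment. The other group was moved for 24 h to a hypoxic incubator (1% O2, 5% CO2, 94% N2). Each group had 1 small RNA library and 1 mRNA library, so there were 4 libraries in all and no replicates. The series title speaks of exosomal miR-671-3p, whereas the labels of all 4 libraries name H1975 cells.

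A miRNA is a short RNA cut from a hairpin, and it guides Argonaute proteins to mRNAs whose translation and stability it lowers. Bases 2 to 8 from the 5′ end, the seed, do most of the target recognition, so miRNAs with 1 seed form a family that can act on shared targets. Either strand of the hairpin can be kept, and the 2 products are named 5p and 3p after their arm. Many miRNA genes lie close together and are transcribed as 1 precursor, and others lie within protein-coding genes. The let-7 family is known for repressing growth and stem cell genes such as RAS genes, MYC, LIN28B and HMGA2 in lung and other epithelia.

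The sequences that carry the composition are those of the families at the head of the list. Of the 116 members, 106 matched a mature miRNA in RefSeq (GRCh38.p14), and for each of these the deposited sequence equalled the RefSeq entry. Sequences are printed 5′ to 3′ in DNA letters, with the seed in capitals. The 9 let-7 family members are shown because they share 1 seed and together hold the largest share of reads of any family:
let-7b-5p: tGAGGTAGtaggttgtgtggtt
let-7a-5p: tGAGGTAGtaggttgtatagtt
let-7f-5p: tGAGGTAGtagattgtatagtt
let-7i-5p: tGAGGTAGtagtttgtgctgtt
let-7c-5p: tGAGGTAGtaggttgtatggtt
let-7e-5p: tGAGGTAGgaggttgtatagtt
let-7g-5p: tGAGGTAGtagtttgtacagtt
miR-98-5p: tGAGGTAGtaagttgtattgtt
let-7d-5p: aGAGGTAGtaggttgcatagtt

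The letters outside the seed tell the let-7 members apart, and few of them do so. Counted from 1 at the 5′ end with let-7b-5p as the reference, let-7c-5p differs by G17A alone, and let-7a-5p by G17A and G19A. let-7f-5p adds G12A to the changes of let-7a-5p, and let-7e-5p adds T9G to them. let-7i-5p differs by G12T, T18C and G19T. let-7d-5p carries T1A, T16C, G17A and G19A, and is the only one of the 9 with a changed first base. The changes in miR-98-5p are G11A, G17A and G19T. A read with 1 wrong base can therefore pass between let-7a-5p and let-7c-5p, let-7e-5p or let-7f-5p, and the division of reads within the family is less certain than its sum.

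The next 2 families of 3 members are shown for the same reason, since each spreads a large share of the column over several members:
miR-92a-3p: tATTGCACttgtcccggcctgt
miR-25-3p: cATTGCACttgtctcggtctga
miR-92b-3p: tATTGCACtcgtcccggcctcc
miR-100-5p: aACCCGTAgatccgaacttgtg
miR-99b-5p: cACCCGTAgaaccgaccttgcg
miR-99a-5p: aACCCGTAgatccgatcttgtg

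With miR-92a-3p as the reference, miR-25-3p carries T1C, C14T, C18T and T22A, and miR-92b-3p carries T10C, G21C and T22C. With miR-100-5p as the reference, miR-99a-5p differs by A16T alone, and miR-99b-5p by A1C, T11A, A16C and T21C.

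Another set shows 2 hairpins that lie on opposite strands of 1 stretch of chromosome 17, so that each arm of one is the reverse complement of an arm of the other:
miR-423-5p: tGAGGGGCagagagcgagacttt
miR-3184-3p: aAAGTCTCgctctctgcccctca
miR-423-3p: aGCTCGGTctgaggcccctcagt
miR-3184-5p: tGAGGGGCctcagaccgagctttt

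The last set holds members that stand alone in their seed family and are returned to below, miR-375-3p for its abundance, miR-3168 for its length of 17 bases, and miR-671-3p because the title names it:
miR-375-3p: tTTGTTCGttcggctcgcgtga
miR-3168: gAGTTCTAcagtcagac
miR-671-3p: tCCGGTTCtcagggctccacc

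The column held 32116 reads, against 6576 in the hypoxia small RNA library. 1 read was worth 0.00311% of the normoxia column, and a count of 0 allows a share of up to 0.00934% when 3 counts are taken as its limit. The deposited TPM equalled 0.112 per read, which implies a total of 8889769, and the column is 0.361% of that total. What the rest of that total holds is not stated. All shares here are therefore shares of the column, and not of all miRNA in the cells. Shares are given with exact Clopper-Pearson 95% intervals. Reads carried no molecular identifiers and are not independent molecules, so the intervals cover counting error only. At the edge of the membership rule, 6 members had 1 read (miR-10400-5p, miR-122b-3p, miR-203b-5p, miR-320d, miR-3617-3p and miR-7160-5p) and 5 had 2 reads. Just outside it were 25 miRNAs with 0 reads in normoxia, of which miR-328-3p had the most in hypoxia, 87 reads.

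Reads were concentrated on a few miRNAs. let-7b-5p led with 4561 reads, 14.2% of the column (13.8 to 14.6). miR-151a-3p followed with 4098 reads, or 12.8% (12.4 to 13.1). The first exceeded the second by more than counting error, with a ratio of 1.11 (1.07 to 1.16). The first 5 miRNAs held 47.2% of all reads. The 10 most abundant miRNAs held 66.1% (65.6 to 66.6) and the first 20 held 81.4%. 6 miRNAs were enough to reach 50% of the reads, 35 to reach 90% and 80 to reach 99%. The median member had 50 reads. An equal mixture of 29.7 miRNAs would have the same Shannon diversity, and one of 16.3 the same Simpson diversity.

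The following places were held by let-7a-5p with 2408 reads (7.50%) and miR-423-5p with 2341 (7.29%), whose ratio of 1.03 (0.971 to 1.09) leaves their order undecided. let-7f-5p had 1745 reads (5.43%) and miR-100-5p 1591 (4.95%). miR-100-5p belongs to a family known for targeting MTOR. A group of 4 followed within a narrow range, miR-3168 with 1197 reads, let-7i-5p with 1160, miR-375-3p with 1076 and miR-92a-3p with 1046. None of these neighbours differed beyond its counting interval. miR-375-3p is best known from pancreatic islets and neuroendocrine cells, and its 3.35% (3.16 to 3.55) put it at rank 9.

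8 further miRNAs reached 1% of the column. They were miR-25-3p with 957 reads, miR-423-3p with 786, miR-378a-3p with 586, miR-320a-3p with 535, miR-182-5p with 403, miR-99b-5p with 351, miR-21-5p with 338 and miR-183-5p with 331. miR-21-5p, often the most abundant miRNA of carcinoma cell lines, was at rank 17 with 1.05% (0.944 to 1.17). The 18 miRNAs at 1% or more held 79.4% of the reads. Among the first 20, 9 of 19 neighbouring pairs differed beyond their counting interval. At the other end, 23 members had fewer than 10 reads and held 72 reads in all, 0.224% of the column.

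**Figure D1:**
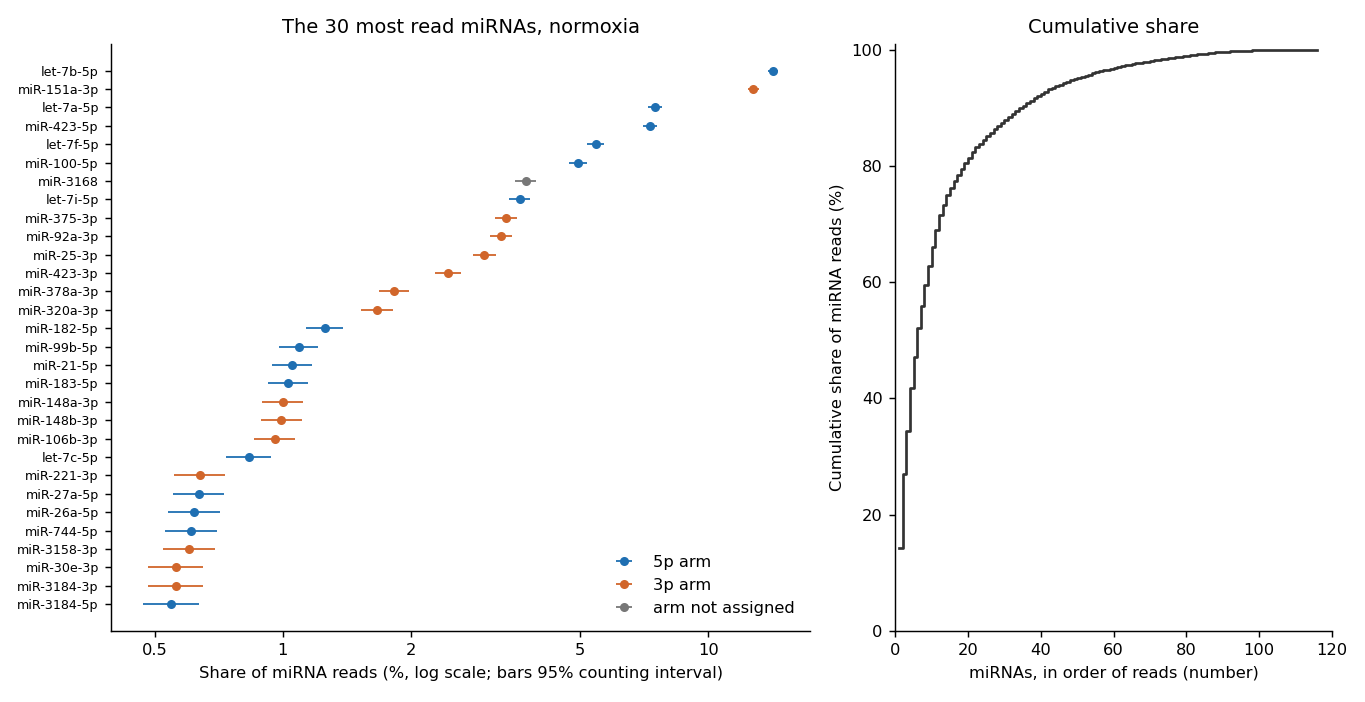
Left, share of the normoxia column (horizontal axis, percent, log scale) of the 30 most read miRNAs, coloured by arm, with 95% counting intervals as bars. Right, cumulative share (percent) against the number of miRNAs in order of reads. let-7b-5p leads at 14.2%, and the cumulative line passes 66.1% at 10 miRNAs and 81.4% at 20.

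miR-3168 was handled apart. Its mature form has 17 bases, the fewest of any member, and RefSeq places it at chr13:41101076-41101092 on the minus strand. It held 1197 reads in normoxia (3.73%, 3.52 to 3.94) and 1069 reads in hypoxia (16.3%, 15.4 to 17.2), where it was the most abundant miRNA. As background, its sequence closely resembles part of the 5′ adapter of the small RNA kit that the labels name. No file used here holds the adapter's sequence, and whether these reads are adapter was not tested, so the rank, family and genomic unit of miR-3168 carry this doubt. Without it the 10 most abundant miRNAs held 67.9% and the let-7 family 33.5% of the column.

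By seed, the 116 miRNAs fell into 87 families. 15 families had 2 or more members, 44 members in all, and these held 62.8% of the reads. The let-7 family was far ahead with 10372 reads, 32.3% of the column (31.8 to 32.8). All 9 of the family's listed members were read, over a range from 4561 reads to 6. let-7b-5p gave 44.0% of the family, let-7a-5p 23.2%, let-7f-5p 16.8% and let-7i-5p 11.2%. The remaining 5 members were minor, with 268 reads for let-7c-5p, 130 for let-7e-5p, 65 for let-7g-5p, 29 for miR-98-5p and 6 for let-7d-5p. let-7c-5p is 1 base from both let-7b-5p and let-7a-5p, each of which had many more reads.

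The seed of miR-423-5p is also that of miR-3184-5p, and the pair held 2517 reads (7.84%, 7.55 to 8.14), of which miR-423-5p gave 2341. The family of miR-92a-3p, which is known from the oncogenic miR-17-92 cluster, held 2126 reads (6.62%, 6.35 to 6.90). In it miR-92a-3p with 1046 reads and miR-25-3p with 957 were nearly level, and miR-92b-3p had 123. The miR-100 family held 1950 reads (6.07%, 5.81 to 6.34) and was uneven, with 1591 reads for miR-100-5p, 351 for miR-99b-5p and 8 for miR-99a-5p. That last value lies 1 mismatch from an miRNA with 1591 reads, as the printed sequences show, and exchange of reads between them was not tested.

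Of the families at 2% or more, the smallest 2 had opposite forms. The miR-320 family had 670 reads, with 535 for miR-320a-3p, 130 for miR-320b, 4 for miR-320c and 1 for miR-320d. The miR-148a-3p family, which includes known repressors of DNMT1, had 657 reads, and miR-148a-3p with 321 was level with miR-148b-3p with 319, while miR-152-3p had 17. The 10 families at 2% or more together held 79.2% of the column, and 4 of them (those of miR-151a-3p, miR-3168, miR-375-3p and miR-423-3p) had a single member.

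Below 2%, some pairs of paralogues were shared out unevenly and others were level. miR-378a-3p gave 586 of the 596 reads of its family. In the family that targets CDKN1B, miR-221-3p had 205 reads and miR-222-3p 89. miR-30e-3p had 180 reads and miR-30a-3p 56. miR-1-3p and miR-206, miRNAs of striated muscle, had 86 and 76 reads, and the first gave 53.1% of the pair (45.1 to 61.0). miR-30a-5p and miR-30c-5p had 78 and 66 reads.

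**Figure D2:**
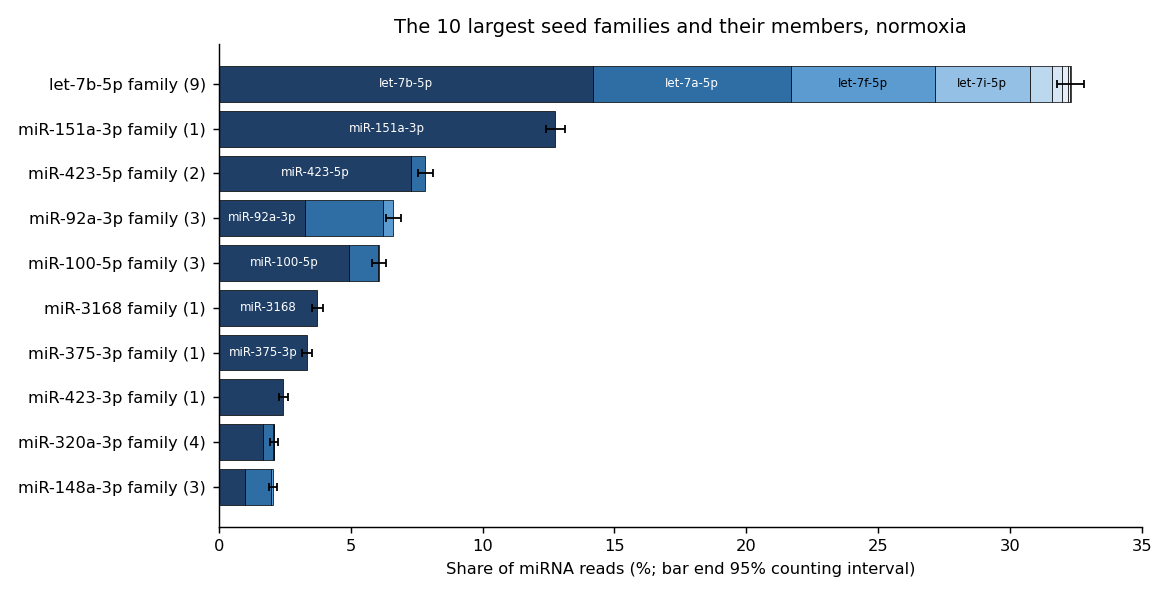
Share of the normoxia column (horizontal axis, percent) held by each seed family at 2% or more, with each member's share as a segment of the bar. The number after each family name counts its members, and the let-7 bar reaches 32.3% and the next, of the single-member miR-151a-3p, 12.8%.

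Over all members with an assigned arm, 17943 reads came from 5p and 12869 from 3p strands, so 58.2% were 5p (57.7 to 58.8). By number of miRNAs the balance was the other way, 52 5p against 61 3p, or 46.0% 5p. Without the 9 5p strands of the let-7 family, 37.0% of reads (36.4 to 37.7) were 5p. 1304 reads had no arm in the name or in RefSeq, those of miR-3168, miR-206 and miR-4428.

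At 20 or more reads, 73 hairpins could be judged. In 61 of them reads were seen on 1 arm alone, 29 on 5p and 32 on 3p. For only 3 of these 61 was the other arm among the miRNAs with values, at 0 reads: miR-25, miR-9 and miR-615. For the others the second arm was not analysed here, so nothing is said of its level. miR-25 had 957 reads of its 3p arm and 0 of its 5p arm in normoxia, and the exact interval of its 5p share reaches 0.385%. In the hypoxia library its 5p arm had 20 reads and its 3p arm 11.

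Both arms were read in 12 hairpins. For 11 of them both arms come, by RefSeq or by name, from the same gene or genes, and among these the interval of the 5p share lay above 50% in 5, below 50% in 4, and held 50% in 2. In the other, miR-30c, the 66 reads of 5p can come from 2 genes and the 31 of 3p from MIR30C2 alone. Equal division gives MIR30C2 33 against 31 reads (51.6% 5p, 38.7 to 64.2). miR-21 was the most one-sided towards 5p, with 338 reads against 35 (90.6% 5p). miR-486 had 162 reads against 46 (77.9%), and miR-423 had 2341 against 786 (74.9%, 73.3 to 76.4). In miR-125a the 5p share was 62.9% and in miR-27a 59.1%. The 3p arm led in miR-92b with 123 reads against 60, in miR-222 with 89 against 27, in let-7d with 34 against 6 and in miR-3158 with 194 against 2. In miR-486 and in miR-3158 the 2 arms are reverse complements of each other over 20 bases. Whether counting used strand is not stated, so these 2 arm shares cannot be told from reads of the opposite strand. The arms of miR-423 are reverse complements of those of miR-3184, over 23 and 21 bases. The arm shares of miR-423 and of miR-3184 therefore carry the same limit. In let-7d the 3p strand thus outnumbered the 5p strand that carries the let-7 seed. The 3p strands of the other let-7 family members were not analysed here.

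Among the hairpins read on both arms, miR-27a is given in more detail. miR-27a-3p is the strand usually described as the guide. Here it had 141 reads, and miR-27a-5p had 204. The interval of the 5p share, 53.7 to 64.4%, lay above 50%. It does not cover exchange of reads between miR-27a-3p and miR-27b-3p, which differ by 1 base and of which the second had 65 reads. In the hypoxia library the same hairpin had 145 reads of 5p and 1 of 3p. miR-125a showed 66 reads of 5p against 39 of 3p in normoxia, and 75 against 0 in hypoxia. miR-92b had 0 reads of 5p and 89 of 3p in hypoxia. The hypoxia column was the shallower one, and with 1 library each these arm shares were not tested between conditions.

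**Figure D3:**
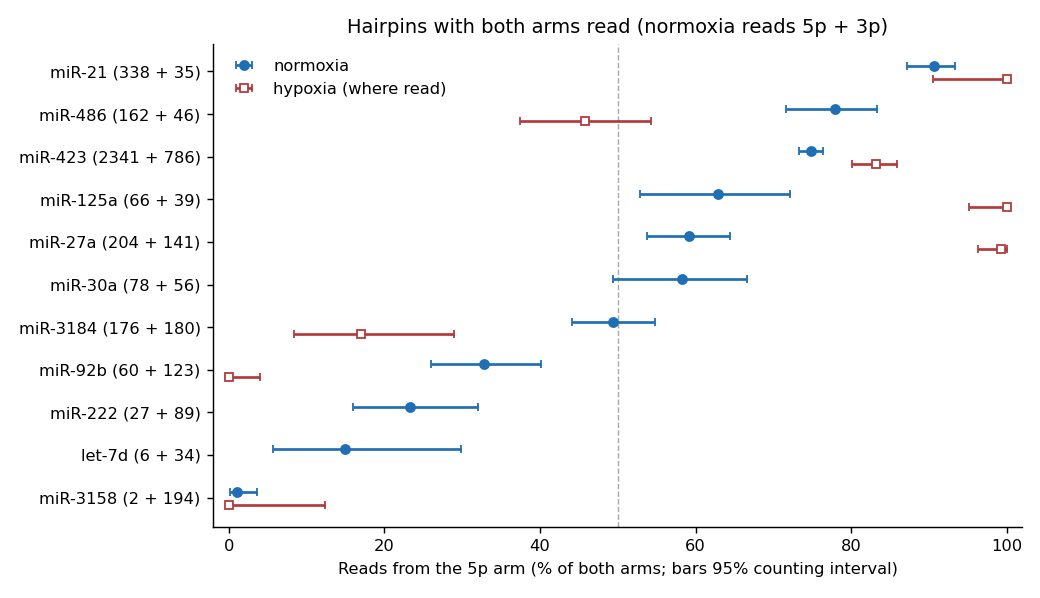
Share of 5p reads (horizontal axis, percent) for the 11 hairpins with 20 or more normoxia reads whose 2 arms were read and come from the same genes, with 95% counting intervals, and the hypoxia library beside it. The normoxia points run from 1.02% for miR-3158 to 90.6% for miR-21, and miR-27a lies at 59.1% in normoxia and 99.3% in hypoxia. For miR-3158 and miR-486 the arms are reverse complements, so their shares cannot be told from reads of the opposite strand. The same limit holds for miR-423 and miR-3184, whose arms are reverse complements of each other's.

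RefSeq gene spans were used to place the reads in the genome. Genes on 1 strand within 10 kb of the next were joined into a cluster, and reads of a miRNA with several genes were divided equally among them. 27152 reads (84.5% of the column) could be placed, in 98 units. Members without a RefSeq match by name could not be placed. They include miR-151a-3p with 4098 reads (12.8%) and miR-320a-3p with 535, so the order of units below leaves them out. 30 units were clusters with 58.3% of the placed reads, and 68 were lone genes. 2 or more genes were read in 13 of the clusters. 16 miRNAs with more than 1 gene held 18.8% of the column, so the shares of their clusters rest on the equal division.

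The leading unit was the MIRLET7A3 and MIRLET7B cluster at chr22:46112749-46113768, with 16.7% of the column. let-7b-5p, which has 1 gene, gave 4561 of these reads, and the equal part of let-7a-5p, which has 3 genes, gave 803. MIR423 at chr17:30117079-30117172 lies within the span of NSRP1 and held 9.74% with its antisense neighbour left out. The MIR100 and MIRLET7A2 cluster at chr11:122146522-122152308 held 7.45%, and MIRLET7A1, MIRLET7F1 and MIRLET7D at chr9:94175957-94178920 held 5.34%. MIR25 and MIR106B at chr7:100093560-100094074, within the span of MCM7, held 3.94%. MIR98 and MIRLET7F2 on the X chromosome held 2.81%, and MIR182 and MIR183 at chr7:129770383-129774988 held 2.29%. miR-92a-3p comes from the 2 clusters of 6 genes known as miR-17-92 and miR-106a-363, and in both it was the only miRNA with a value.

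Genes of 1 cluster often had unequal reads. Their reads were summed over the arms that had values, so an arm without a value is missing from a gene's total. The arm shared by both genes was therefore also compared alone, a setting chosen after seeing the data. Over the 10 pairs of single-copy genes within a cluster, the gene with more reads exceeded the other by a median ratio of 2.90, and the counting interval excluded 1 in 9 of the 10. The largest ratio was that of MIRLET7C to MIR99A, with 268 reads against 8 (33.5, 16.8 to 78.4). Here let-7c-5p is 1 base from let-7b-5p and let-7a-5p, and miR-99a-5p is 1 base from miR-100-5p. Exchange of reads with these more abundant miRNAs was not tested and is not covered by the interval. MIR27A had 345 reads over both arms and MIR23A 19 of its 3p arm (18.2, 11.5 to 30.5). On the 3p arm alone this was 141 against 19 (7.42, 4.58 to 12.7). In the second copy of this cluster, MIR27B had 65 reads against 11 of MIR23B (5.91, 3.09 to 12.4). The 3p strands of MIR27A and MIR27B differ by 1 base, as do those of MIR23A and MIR23B over their shared length. Exchange of reads between the 2 clusters was not tested, so the 2 ratios may not be separate observations. MIR25 had 957 reads against 308 of MIR106B, both of the 3p arm, or 3.11 (2.73 to 3.54). miR-106b-5p had no value here, so this ratio does not compare the whole output of the 2 genes. MIR99B with 351 reads exceeded MIRLET7E with 130 and MIR125A with 105, and the ratio of these last 2 held 1 (1.24, 0.95 to 1.62). On the 5p arm alone it did not, with 130 reads of let-7e-5p against 66 of miR-125a-5p (1.97, 1.45 to 2.69), and MIR99B exceeded MIR125A by 5.32 in place of 3.34. MIR221 exceeded MIR222 by 1.77 over all arms and by 2.30 on the 3p arm. Over the 9 pairs with a shared arm, the intervals all excluded 1. MIR182 with 403 reads and MIR183 with 331, which are known from sensory cells and are often high in carcinomas, were the closest to level among the pairs that differed (1.22, 1.05 to 1.41).

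**Figure D4:**
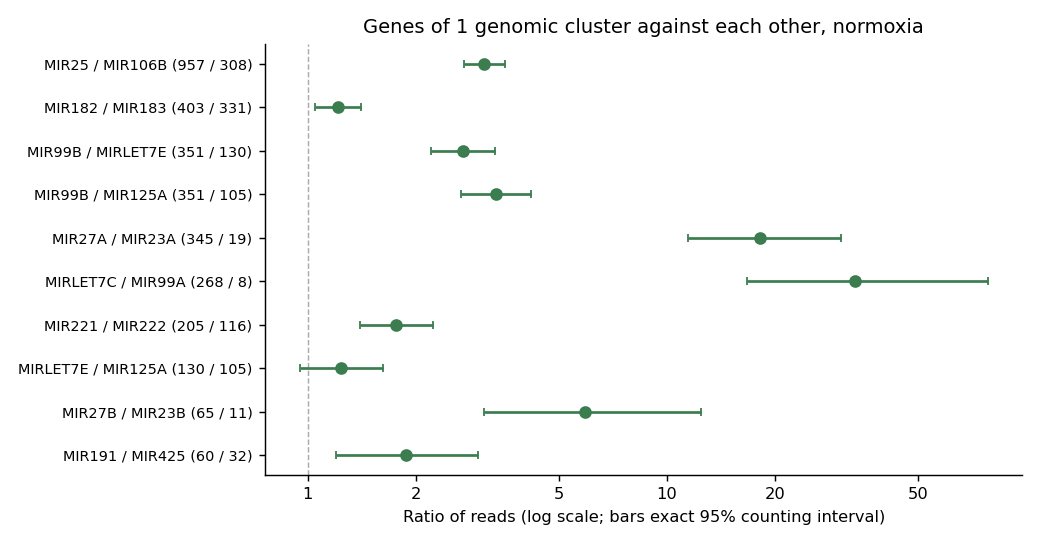
Ratio of reads (horizontal axis, log scale) between 2 single-copy miRNA genes of 1 cluster, summed over the arms with values, the higher over the lower, with 95% counting intervals. The 10 ratios run from 1.22 for MIR182 over MIR183 to 33.5 for MIRLET7C over MIR99A, and only the interval of MIRLET7E over MIR125A holds 1. The intervals do not cover exchange of reads with near-identical miRNAs.

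Some miRNAs lie within protein-coding genes, whose mRNA was measured in the normoxia mRNA library. 30 single-copy miRNA genes with 10 or more reads lay on the same strand within the spans of 25 such hosts. Members without a RefSeq match, such as miR-151a-3p with 4098 reads, had no position and could not be compared with a host. Host mRNA and miRNA reads showed almost no common order across these 30 points: Spearman's rho was 0.018, and Pearson's r was 0.10 between log2 reads and log2(FPKM + 1). The points are not independent, because some miRNAs share a host and all come from 1 library of each kind. Host levels ran from an FPKM (fragments per gene length and library total) of 0.00695 for RYR2 to 165 for MCM7. Their median over the 30 points was 12.5, against 5.28 over the 15051 genes with a count.

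The hosts of miRNAs with 100 or more reads show the lack of order. miR-423-5p with 2341 reads lies in NSRP1 at an FPKM of 10.4. miR-25-3p with 957 reads and miR-106b-3p with 308 lie in MCM7, a replication helicase subunit, at an FPKM of 165. miR-148b-3p (319 reads) lies in COPZ1 at an FPKM of 114, and miR-21-5p (338 reads) in VMP1 at 113. miR-378a-3p had 586 reads while its host PPARGC1B, a coactivator of mitochondrial genes, was at an FPKM of 1.05. miR-99b-5p had 351 reads and let-7e-5p 130, while their host SPACA6 was at an FPKM of 0.651. miR-126-3p, the miRNA of endothelial cells, had 140 reads while EGFL7 had 14 counts and an FPKM of 0.292. In the middle were MAP2K4 at an FPKM of 14.2 (miR-744-5p, 196 reads), NFYC at 7.01 (miR-30e-3p, 180 reads), GIPR at 23.6 (miR-642a-3p, 166 reads) and LPP at 1.10 (miR-28-3p, 158 reads). The reverse of miR-126-3p was seen for miR-671-3p, with 28 reads in the span of CHPF2 at an FPKM of 45.4.

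**Figure D5:**
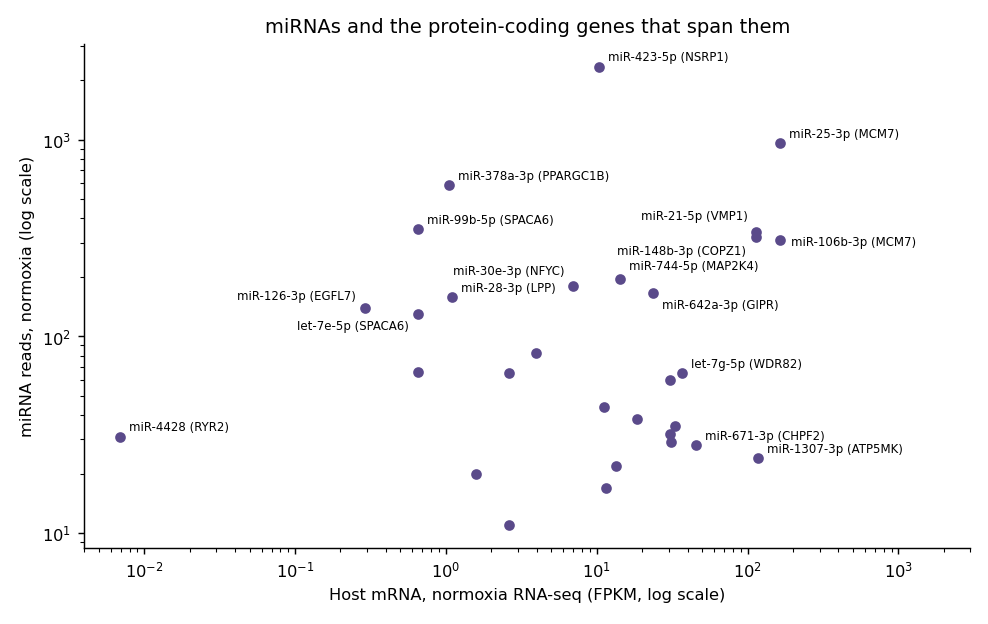
Normoxia miRNA reads (vertical axis, log scale) against the FPKM of the same-strand host gene in the normoxia mRNA library (horizontal axis, log scale), 1 point for each of 30 miRNA genes. The points show no trend (Spearman's rho 0.018), with miR-378a-3p and miR-126-3p high over hosts of low FPKM. Members without a RefSeq match are not shown.

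miR-671-3p, the miRNA of the title, comes from MIR671 at chr7:151238421-151238538. Its 28 reads were 0.0872% of the normoxia column (0.0579 to 0.126). miR-671-5p had no value here.

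The cell line's identity was checked in its mRNA and then against miRNAs of other cell types. Epithelial mRNAs were high, with FPKM values of 1821 for KRT8, 1554 for KRT19, 1169 for KRT18, 549 for KRT7 and 9.11 for CDH1, and EPCAM had 1364 counts. The lung lineage factor NKX2-1 was at 32.3, while the surfactant genes SFTPB and SFTPC were at 0.211 and 0.135. VWF, PTPRC and MYH7 were listed at 0. PECAM1 was at 0.186, CDH5 at 1.00, DCN at 0.258, ALB at 0.0496, APOA1 at 0.116 and ACTA1 at 0.114, whereas COL1A1 was at 15.1, COL1A2 at 3.03 and the leukocyte gene CD68 at 128.

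Of 7 listed epithelial miRNAs, 2 had values and both were low, miR-200c-3p with 37 reads and miR-203a-3p with 35, together 0.224% of the column (0.175 to 0.282). The other 5 were not analysed here. Some miRNAs best known from other cell types had higher counts than these 2. The erythroid miR-486-5p had 162 reads (1 of 4 listed had a value), the hepatocyte miR-122-5p 142 (1 of 2), the endothelial miR-126-3p 140 (1 of 2) and the mesenchymal miR-143-3p 124 (1 of 7). The muscle miRNAs miR-1-3p and miR-206 had 162 reads between them (2 of 7). Of the 9 neural miRNAs, miR-9-5p had 51 reads and miR-9-3p, miR-128-3p and miR-129-5p were in the table at 0. The pluripotency list gave 27 reads of miR-372-3p (1 of 8). None of the 6 leukocyte and 6 placental miRNAs had a value here. In the mRNA library the liver genes ALB and APOA1 had 2 counts each, and the muscle genes MYH7 and ACTA1 had 0 and 3. Of the endothelial genes, VWF had 0 counts, PECAM1 24 and CDH5 73. Fibroblast genes were read, with 1579 counts for COL1A1, 271 for COL1A2 and 32 for DCN. The source of these miRNA reads was not tested.

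Lists of cancer-related miRNAs were also uneven. Among 10 oncogenic miRNAs described in lung cancer, 5 had values and held 1366 reads (4.25%, 4.04 to 4.48), from 403 for miR-182-5p to 89 for miR-222-3p. Among 18 described as tumour suppressive apart from let-7, 4 had values, and 343 reads (1.07%, 0.958 to 1.19) were split between miR-26a-5p with 199, miR-30a-5p with 78 and miR-30c-5p with 66, while miR-30d-5p had 0. The neuroendocrine pair had 1076 reads for miR-375-3p and 47 for miR-7-5p (3.50%, 3.30 to 3.70). Of 13 miRNAs of the miR-17-92 cluster and its paralogues, miR-92a-3p and miR-25-3p had values and held 2003 reads (6.24%). Not on that list was miR-106b-3p, from the same cluster as miR-25-3p, with 308 reads (0.959%). Of 7 miRNAs of the miR-23, miR-27 and miR-24 clusters, 5 had values and held 286 reads (0.891%), from 141 for miR-27a-3p to 11 for miR-23b-3p. The list leaves out miR-27a-5p with 204 reads, and with it the 2 clusters held 1.21% and 0.314% of the column. Of 11 miRNAs linked to hypoxia, miR-26a-5p with 199 reads and miR-103a-3p with 3 had values.

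Some features of sequence that the rule did not use were also described. They were taken from the deposited mature sequence of each miRNA, and not from the reads themselves. Shares of reads weight each miRNA by its count. The first base was T (U in the RNA) in 45.7% of the 116 miRNAs and in 60.1% of the reads (59.6 to 60.6), against 36.8% of 2370 mature miRNAs in RefSeq. Argonaute proteins are known to favour a 5′ U. Of the let-7 family 8 of 9 members begin with T, and without the family 41.1% of the reads and 42.1% of the miRNAs began with T. With this family left out, the share among reads was thus no higher than that among miRNAs. Lengths of 21 to 23 bases made up 105 of the 116 miRNAs and 94.0% of the reads, and 22 bases alone 67 miRNAs (57.8%) and 66.1% of the reads, against 44.4% of the mature miRNAs in RefSeq. Only 4 miRNAs had 20 bases or fewer, and their 3.81% of the reads was nearly all miR-3168. The median GC content was 50% over the members and 52.2% over RefSeq.

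Members read in normoxia often had no read in the shallower hypoxia column. 51 of the 116 also had a hypoxia read, against 76 of all 141 miRNAs, a number that includes 25 read in hypoxia alone. The 51 took in 9 of 10 members with 1000 or more normoxia reads and 27 of 32 with 100 to under 1000. Members with 0 hypoxia reads included miR-375-3p with 1076 normoxia reads and miR-183-5p with 331, and the reason was not tested. Below 100 reads the share was lower and did not follow abundance, with 10 of 44 at 20 reads or more, 0 of 7 at 10 to under 20 and 5 of 23 at fewer than 10.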

How the data were processed

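Small RNA libraries were made from 1 µg and mRNA libraries from 4 µg of total RNA, per the labels' protocols. Per the submitters' processing notes, the build was GRCh38 and the tools were Bowtie, Cufflinks, HISAT2, HTSeq and Trimmomatic, with no roles given. No source used here states whether reads were counted by strand, so reads of antisense miRNAs cannot be told apart. The authors deposited whole-number read counts per mature miRNA, a TPM that equals these counts times 1 constant, and for mRNA counts and FPKM.

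Shares were computed from the counts with exact Clopper-Pearson 95% intervals, and ratios of 2 counts with exact conditional intervals, in Python 3.11.15 (numpy 2.4.6, pandas 2.3.3, scipy 1.17.1, matplotlib 3.10.9). The code for the share intervals was run on counts drawn independently from the observed shares. Such draws check the code alone, since the reads of the library are not independent molecules. With 1 library per group no p-value was computed. Seeds were bases 2 to 8. Genes, hosts and sequences came from RefSeq GRCh38.p14, matched by name, and 10 members without a match were left out of positions. Arms came from the name or the hairpin.

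Named were miRNAs at 1% or more, members of families or clusters at 2% or more, the extremes of each list, hairpins read on both arms, miR-671, and hosts of miRNAs with 100 or more reads. Some pairs, opposite extremes and smaller families were added after their values were seen. The members and lists were chosen with earlier results of these data known. The alternatives tried were the deposited TPM, Wilson intervals, minima of 10 and 100 reads, seeds of bases 2 to 7, other cluster gaps and copy rules, each miRNA counted once, and leaving out the most abundant miRNA. Leaving out miR-3168 or miR-3184 and comparing genes on 1 arm were chosen after seeing the data.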

Additional observations from a re-analysis of the deposited data

How the results depend on the processing

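No paired analysis was possible because each group had 1 library. Of 271 shares recomputed under another setting, 203 stayed within the counting interval of the reported share and 68 moved. The deposited TPM and Wilson intervals could not move a share by their construction and are not counted. Among the counted settings, a minimum of 10 reads dropped only 0.224% of the column. The copy rules cannot change units made of single-gene miRNAs alone. The 203 thus include shares that could hardly move, and their number does not measure stability. A minimum of 10 reads, seeds of bases 2 to 7 and a cluster gap of 50 kb moved no share. Leaving out let-7b-5p moved 46 of 55 shares, since it lowers the total and takes these reads out of the groups that hold let-7b-5p. The 10 most abundant miRNAs then held 63.9%, and 5p strands 51.0%. The families held 21.1% (let-7), 9.13% (miR-423-5p), 7.72% (miR-92a-3p), 7.08% (miR-100-5p), 2.43% (miR-320a-3p) and 2.38% (miR-148a-3p). The clusters held 2.91% (MIRLET7A3 and MIRLET7B), 8.69% (MIR100 and MIRLET7A2), 6.22% (MIRLET7A1, MIRLET7F1 and MIRLET7D), 4.59% (MIR25 and MIR106B), 3.27% (MIR98 and MIRLET7F2) and 2.66% (MIR182 and MIR183). Without miR-3168 the first 10 held 67.9%, the let-7 family 33.5%, the miR-423-5p family 8.14% and the MIRLET7B cluster 17.3%. Without both miR-3184 strands the first 10 held 66.8% and miR-423-5p 7.37%. Counting each miRNA once gave 46.0% 5p. Of the 116 miRNAs, a minimum of 10 reads left 93 and one of 100 reads left 42. The let-7 clusters depended on the copy rule. With only single-gene miRNAs the clusters of MIRLET7B, MIR100, MIRLET7A1 and MIR98 held 14.2%, 4.95%, 0.125% and 0.0903%, and with the full count given to every gene 21.7%, 12.5%, 13.1% and 5.52%. A gap of 3 kb parted MIR100 from MIRLET7A2 (4.95%) and MIR182 from MIR183 (1.25%). With 1 or more reads, the host comparison had 31 miRNA genes and a rho of 0.032. Depth limits members under 10 reads, whose order cannot be told.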

Other observations

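Near-identical members took up a large part of the column. 15 pairs of miRNAs differed by at most 1 mismatch over at least 16 bases on the same strand, and the 19 miRNAs in them held 37.5% of the reads. Within such pairs miR-27a-3p had 141 reads and miR-27b-3p 65, miR-10a-5p 130 and miR-10b-5p 50, and miR-23a-3p 19 and miR-23b-3p 11.

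A further 9 pairs were reverse complements of each other, with 18 miRNAs and 13.6% of the reads. In each pair 1 miRNA was much the rarer, though not to the same degree. The rarer one gave 7.14% (6.17 to 8.22) of the pair miR-423-5p and miR-3184-3p, and 18.3% (15.9 to 20.9) of miR-423-3p and miR-3184-5p. The values were 12.2% for miR-642b-5p beside miR-642a-3p, 11.3% for miR-3529-3p beside miR-7-5p, 7.41% for miR-3074-5p beside miR-24-3p and 22.1% for miR-486-3p beside miR-486-5p. They were 2.78% for miR-203b-5p beside miR-203a-3p, 1.02% for miR-3158-5p beside miR-3158-3p and 0.699% for miR-122b-3p beside miR-122-5p.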
